A study of Mus musculus with 16 samples.

Results

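Th17 cells that lacked pyruvate dehydrogenase were compared with wild-type Th17 cells when both had been grown in sodium acetate. The comparison takes the 4 KO acetate libraries and the 4 WT acetate libraries, 8 of the 16 in the series, and covers every gene of the deposited table. It tested 14985 genes out of the 15571 in that table. The series title links pyruvate dehydrogenase, written PDH here and PHD in the sample titles, to a citrate pool needed for Th17 function. The remaining 8 libraries are the same genotypes cultured without acetate.

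All cultures began as naive CD4+ T cells that were bead-sorted from mouse spleen and lymph nodes. They were grown for 3 days on plate-bound anti-CD3 (5 µg/mL) with anti-CD28 (1 µg/mL). The Th17-inducing cytokines were IL-6 at 30 ng/mL and TGFβ at 2 ng/mL, and IFNγ was blocked with 5 µg/mL of antibody. WT acetate libraries (n = 4) came from PDH fl/fl cells without Cre, and KO acetate libraries (n = 4) from PDH fl/fl CD4-Cre+ cells. Both received 10 mM sodium acetate during differentiation. WT untreated and KO untreated libraries (n = 4 each) had the same genotypes and medium without it. The floxed alleles are thus shared by all groups, and CD4-Cre, which acts in T cells, is carried by the KO groups alone. Effects of Cre itself and of the sodium ion cannot be told apart from those of the deletion and of acetate in these libraries. The age and sex of the mice are not given in the labels, nor do they say that the 4 libraries of a group are separate animals or cultures. The p-values therefore reflect variation among libraries, which may be technical.

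Pyruvate dehydrogenase is the mitochondrial complex that turns pyruvate into acetyl-CoA, which condenses with oxaloacetate to form citrate. Citrate that leaves the mitochondrion is split by ATP citrate lyase, Acly, into cytosolic acetyl-CoA for fatty acids, sterols and protein acetylation. Acetate offers another source, since the acyl-CoA synthetases Acss1 (mitochondrial) and Acss2 (cytosolic and nuclear) turn it into acetyl-CoA directly. Th17 cells are CD4+ helper cells that secrete IL-17A, IL-17F and related cytokines.

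Total counts ran from 24.57 M to 33.72 M per acetate library, and levels are given as CPM, counts relative to the scaled library total. In a principal component analysis of the 8 libraries the first component, 30.57% of the variance, put the WT libraries between -41.48 and -8.82 and the KO libraries between 4.48 and 43.86. One Ensembl gene without a name took 7.99% of counts in KO acetate 2 and 0.267% to 1.53% in the other acetate libraries. Summed CD4 T cell markers (13 genes) ranged from 3934 to 4107 CPM in WT and from 3656 to 3907 CPM in KO libraries, and 2 of the 13, Cd3g and Cd3d, fell. The 9 Th17 markers summed to 1427 to 2234 CPM in WT and 1777 to 3033 CPM in KO, with none called. No marker of B, myeloid, dendritic, NK, CD8, γδ T or stromal cells was called, and the ranges of their sums overlapped. They were 49.8 to 53.9 CPM in WT and 43.9 to 58.4 CPM in KO for B cells (9 of 9 markers in the table), and 46.1 to 69.0 and 47.3 to 64.4 CPM for dendritic cells (6 of 9). For the other 5 types no library exceeded 26.9 CPM, and none of the 6 erythroid markers was in the table. Fewer cells of a type and less RNA per cell cannot be told apart in such bulk libraries.

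No gene of the targeted complex or of the enzymes that handle acetate passed the test. For the 5 subunit genes the differences were between -0.063 and 0.129 on the log2 scale, with a median log2 difference of -0.0163 beside 0.00741 over all tested genes. Pdha1 was at 263, 273, 251 and 250.4 CPM in WT acetate libraries 1 to 4 and at 262, 254, 244 and 232 CPM in KO acetate libraries 1 to 4, and the groups overlapped (log2 -0.06, edgeR adjusted p = 0.597). The other catalytic and structural subunits gave log2 -0.02 for Pdhb, -0.05 for Dlat, 0.02 for Pdhx and 0.13 for Dld. Whole-gene counts include transcripts that merely lack floxed exons, and the labels do not name the floxed gene, so these values do not check the genotype. Acss1 stood at 8.72 ± 1.31 CPM for WT and 8.59 ± 1.22 CPM for KO cultures with acetate (SD, n = 4 each), and Acss2 at 19.2 ± 6.32 and 20.5 ± 3.07 CPM. Acly was at 505 ± 69.2 CPM for WT and 614 ± 58.9 CPM for KO (log2 0.28, edgeR adjusted p = 0.116), and the mitochondrial citrate carrier Slc25a1 at 112 ± 22.04 and 115 ± 13.2 CPM. All 12 tested genes of acetyl-CoA supply missed the threshold, 6 on either side of 0.

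With acetate present, 150 genes differed between KO and WT Th17 cells at an edgeR adjusted p under 0.05. Of these, 73 were higher in KO (0.487% of the genes tested) and 77 were lower (0.514%), 1.00% in either direction. Differences were small: the median size among called genes was 0.428 on the log2 scale, 20 genes rose more than 2-fold and 2 fell more than 2-fold. The groups of 4 did not overlap for 146 of the 150. Over all tested genes 4.50% had every KO library above every WT library, and 4.86% had every KO library below. An unadjusted p under 0.05 was reached by 2762 genes. Without TMM scaling the split was 28 higher and 50 lower, against 73 and 77 with it.

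The number of calls depended on single libraries. Leaving out WT acetate 2, 3 or 4 left 59, 21 and 42 calls, and leaving out KO acetate 1 or 3 left 22 and 24. Without KO acetate 2 there were 661 calls, without KO acetate 4 there were 371, and without WT acetate 1 there were 109. All 150 genes kept their sign in these 8 fits, which is fixed for the 146 whose groups do not overlap. Of the 150, 15 stayed under the threshold in all 8 fits, 10 of them higher and 5 lower. Among the 53 called genes chosen by the naming rule, 7 did so: Sox4, Areg, B3galt2, Dclk1, Podnl1, Cd3g and Pycard. The other 46 of the 53 lost the call in at least 1 of these fits. Genes outside that rule that held in all 8 included the rises Alcam and Stab1 and the falls Arl6ip1, Fam189b and Pld3. Without KO acetate 1, 8 of the 53 stayed called, and without KO acetate 3 it was again 8. A fit of the 8 acetate libraries alone called 16 genes, 12 of them among the 150, and 7 of the named genes. Those 7 were Sox4, Areg, B3galt2, Dclk1, Inhba, Plk2 and Arhgef5, all of them rises. Pld3, outside the naming rule, was a fall that stayed called there (edgeR adjusted p = 0.0312). Podnl1, Cd3g and Pycard lost the call in that fit (edgeR adjusted p = 0.061, 0.0631 and 0.0526).

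The same genotype contrast without acetate called 5481 genes, 36.6% of those tested. A test of the change in the genotype difference between the acetate and untreated cultures, the interaction, called 1785 genes or 11.9%. The contrasts with and without acetate use different libraries. Of the 150 genes called with acetate, 106 were also called without it, 105 in the same direction and 1, Syde2, in the opposite direction. The 105 shared genes are 70% of the acetate calls and 1.92% of the untreated calls. For 65 of the 105 the difference was smaller with acetate and for 40 it was larger. The remaining 44 genes were called with acetate alone, and 20 of them had an interaction call. The interaction uses the same libraries that picked these 44, so that count is not separate support for a difference between the cultures.

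**Figure D1:**
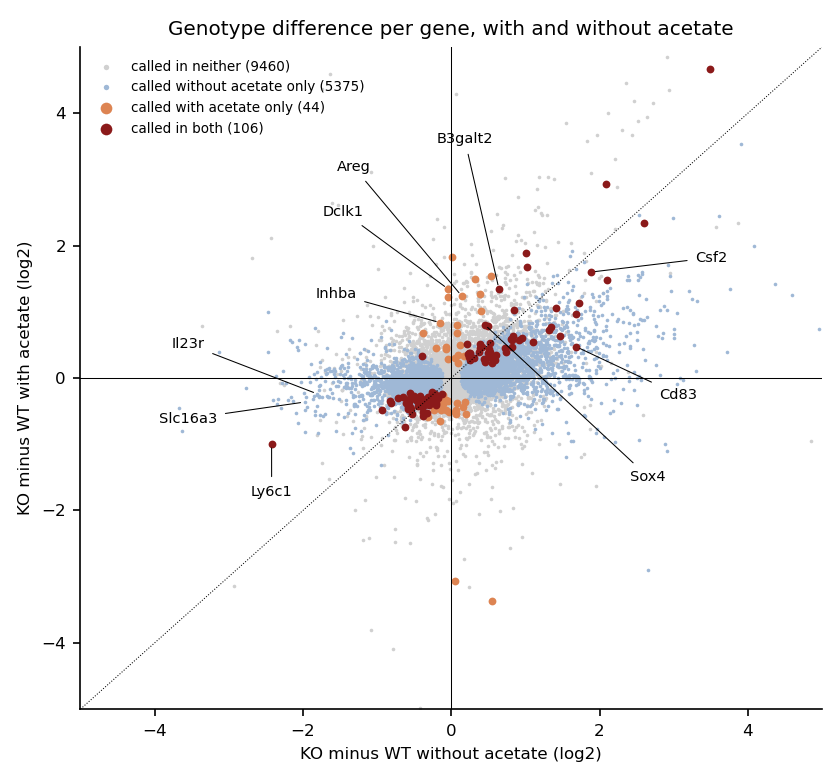
Each point is a gene, with its log2 difference between KO and WT cultures without acetate on the horizontal axis and with acetate on the vertical axis, coloured by where it was called. Most of the 5375 genes called without acetate alone lie near 0 on the vertical axis, and the dotted line marks equal differences; 32 genes fall outside the axes.

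The rises that held in each fit that left out 1 library included a growth factor, a transcription factor, a glycosyltransferase and a kinase. Areg was at 2.02, 2.25, 2.57 and 2.69 CPM in WT acetate libraries 1 to 4 and at 6.603, 4.67, 5.18 and 6.03 CPM in KO acetate libraries 1 to 4. Every KO library was above every WT library. Areg encodes amphiregulin, an EGF-family growth factor made by type 2 and tissue-repair T cells, and it was 2.36-fold higher in KO (log2 difference 1.24, SE 0.16; edgeR adjusted p = 0.00119). Without acetate it was at 5.502, 6.09, 4.702 and 4.87 CPM in the WT libraries and 7.31, 4.95, 5.58 and 5.51 CPM in the KO libraries, where the genotypes overlapped. The genotype difference was larger with acetate than without, by 1.10 (SE 0.22; edgeR interaction adjusted p = 0.00375); of the 4 groups, WT acetate was the lowest.

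Dclk1 was at 37.1, 36.4, 23.4 and 28.2 CPM in WT acetate libraries 1 to 4 and at 91.2, 92.4, 68.7 and 65.9 CPM in KO acetate libraries 1 to 4. The lowest KO library was above the highest WT library. Dclk1 encodes a microtubule-associated serine/threonine kinase and was 2.54-fold higher in KO (log2 difference 1.35, SE 0.18; edgeR adjusted p = 0.00346). In untreated cultures its levels were 11.9, 20.1, 19.3 and 16.3 CPM in the WT libraries and 14.1, 17.7, 17.5 and 16.4 CPM in the KO libraries. These untreated values overlapped, and the interaction was 1.39 (SE 0.25; edgeR interaction adjusted p = 0.00308). Both acetate groups lay above both untreated groups, and the KO acetate group the furthest.

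Sox4 was at 24.3, 23.8, 17.5 and 21.1 CPM in WT acetate libraries 1 to 4 and at 38.2, 38.1, 39.9 and 35.7 CPM in KO acetate libraries 1 to 4. The 4 KO values lay close together and above all WT values. Sox4, a high-mobility-group transcription factor of developing and TGFβ-treated T cells, was 1.75-fold higher in KO (log2 difference 0.81, SE 0.09; edgeR adjusted p = 0.000469). B3galt2, a galactosyltransferase of glycan synthesis, rose from 3.46 ± 0.681 to 8.8 ± 1.06 CPM and was 2.54-fold higher in KO (log2 difference 1.35, SE 0.17; edgeR adjusted p = 0.00119). Its WT libraries ran from 2.57 to 4.23 CPM and its KO libraries from 7.29 to 9.62 CPM, without overlap. Podnl1, a small leucine-rich repeat proteoglycan, rose from 7.1 ± 0.414 to 11.7 ± 1.89 CPM (log2 0.72, edgeR adjusted p = 0.00985). Its untreated difference was larger, at log2 1.32, and the interaction was -0.60 (adjusted p = 0.0256).

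Inhba, the βA subunit of activins, TGFβ-family ligands, was higher in KO cells grown with acetate. Inhba was at 187, 169, 136 and 167 CPM in WT acetate libraries 1 to 4 and at 366, 237, 295 and 279 CPM in KO acetate libraries 1 to 4. The groups did not overlap, and KO acetate 1 was the highest library. Inhba was 1.79-fold higher in KO (log2 difference 0.84, SE 0.15; edgeR adjusted p = 0.0239), called in 3 of the 8 fits that left out 1 library (highest adjusted p = 0.0859, without KO acetate 1). Untreated libraries were at 105, 179.6, 156 and 145 CPM in the WT libraries and 126, 132, 123 and 147 CPM in the KO libraries, with overlap, and the interaction was 0.99 (SE 0.22; edgeR interaction adjusted p = 0.00873). It was the only one of 26 tested TGFβ and SMAD genes that passed, and the list's median was 0.0602. Smad7, the inhibitory SMAD, was at 20.6 ± 1.85 CPM for WT and 25.6 ± 0.854 CPM for KO cultures with acetate (adjusted p = 0.0651).

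Further genes of the largest rises were Rpl10, Galnt14, Arhgef5, Shtn1 and Apobr. Galnt14, a polypeptide GalNAc-transferase that starts O-glycans, rose from 2.804 ± 1.02 to 5.697 ± 1.26 CPM (2.03-fold, edgeR adjusted p = 0.0297). Shtn1, a cytoskeletal clutch protein, rose from 14.2 ± 2.41 to 24.5 ± 4.25 CPM, and Arhgef5, a guanine nucleotide exchange factor, from 8.52 ± 1.34 to 14.9 ± 1.47 CPM. Apobr, a receptor for apolipoprotein B48, rose from 6.402 ± 0.316 to 10.2 ± 1.49 CPM. The ribosomal protein gene Rpl10 was at 143, 183, 79.4 and 114 CPM in WT and 549, 336, 451 and 333 CPM in KO acetate libraries (edgeR adjusted p = 0.0466), but ribosomal protein genes share reads with many pseudogenes, so its counts are uncertain. Without KO acetate 1 these 5 calls were lost, with adjusted p from 0.104 (Shtn1) to 0.171 (Rpl10), and Arhgef5 was lost at the same 0.138 without WT acetate 3.

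Of the falls, Pycard, Susd3, Tlr1 and Macrod1 were among the largest. Pycard was at 39.1, 33.8, 34.03 and 32.4 CPM in WT acetate libraries 1 to 4 and at 22.5, 26.5, 20.8 and 25.3 CPM in KO acetate libraries 1 to 4, with no overlap. Pycard encodes ASC, the adaptor of inflammasomes, and was 1.46-fold lower in KO (log2 difference -0.55, SE 0.09; edgeR adjusted p = 0.00896); its untreated log2 difference was -0.53. Tlr1, a Toll-like receptor that pairs with TLR2, fell from 15.1 ± 2.44 to 10.01 ± 1.28 CPM, and Macrod1, a mitochondrial ADP-ribose hydrolase, from 6.21 ± 1.097 to 3.97 ± 0.668 CPM. Susd3, a sushi-domain membrane protein, fell from 24.2 ± 1.99 to 16.6 ± 2.34 CPM, and its interaction was -0.75 (edgeR adjusted p = 0.00199) from an untreated log2 difference of 0.20. The other falls of that group were Sh3bgrl3 (1.48-fold), Trappc1 of vesicle tethering complexes (1.44-fold), Tmem107 of the ciliary transition zone (1.42-fold), Cd320, the receptor for transcobalamin-bound vitamin B12 (1.401-fold), and Ttyh3 (1.4-fold). Rps13, at 533 ± 26.5 and 364 ± 91.4 CPM (1.46-fold lower), is uncertain for the reason given for Rpl10. Pycard held in all 8 fits without 1 library, but not in the fit of the acetate libraries alone (edgeR adjusted p = 0.0526). Susd3 lost its call without WT acetate 3 (edgeR adjusted p = 0.0607) and Trappc1 without KO acetate 3 (adjusted p = 0.0771). Without KO acetate 1 both of these calls were lost too (edgeR adjusted p = 0.0605 for each). The other 7 falls named here were also lost without KO acetate 1, at adjusted p from 0.123 (Ttyh3) to 0.172 (Macrod1).

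**Figure D2:**
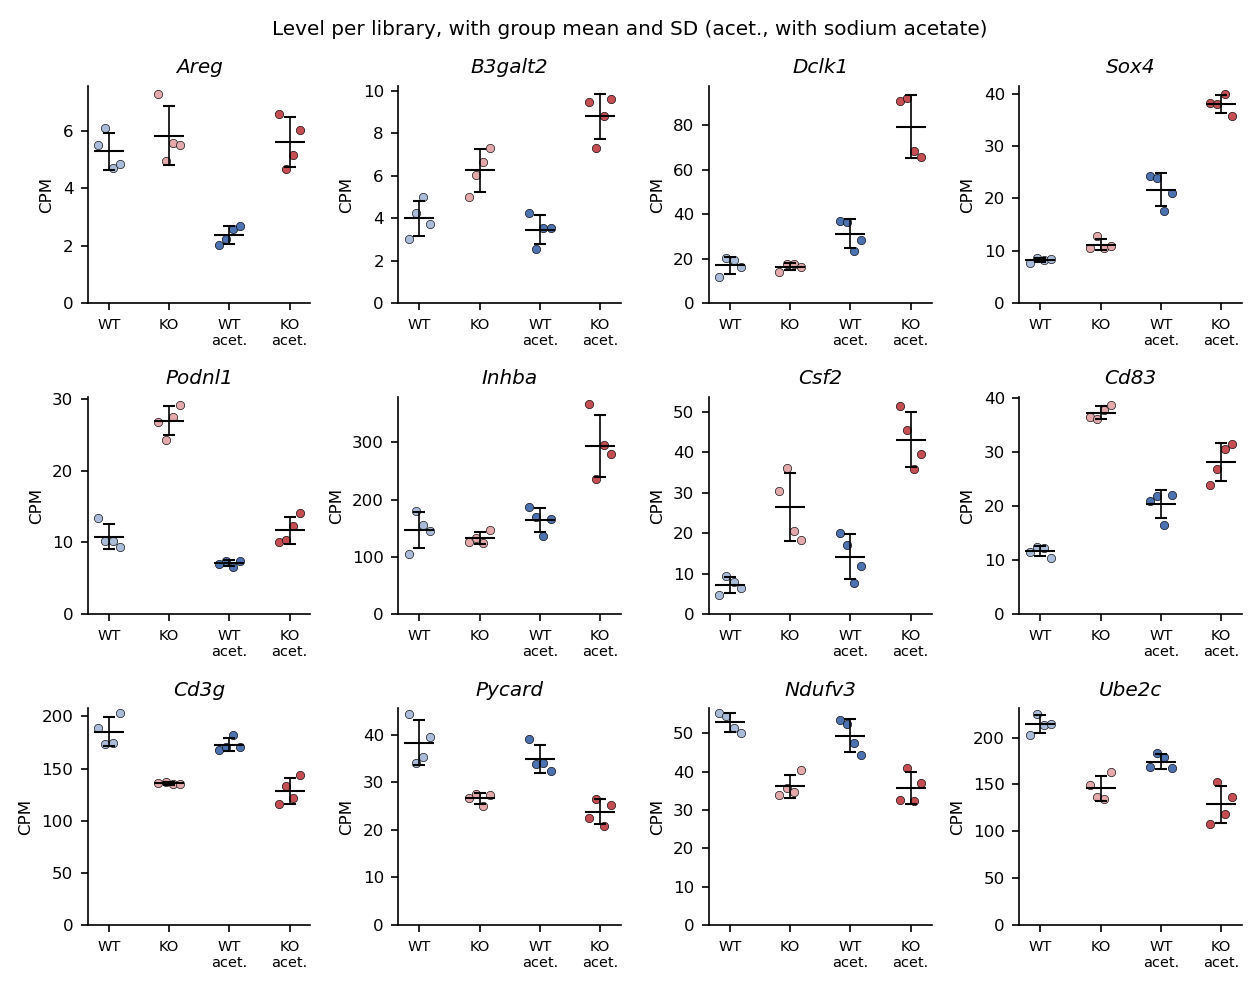
Levels of 12 genes in CPM in each of the 16 libraries, with points for libraries and bars for group mean and SD (n = 4). With acetate, the 4 KO libraries of Areg, B3galt2, Dclk1, Sox4, Podnl1, Inhba, Csf2 and Cd83 lie above the 4 WT libraries, and those of Cd3g, Pycard, Ndufv3 and Ube2c lie below.

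Among Th17 cytokines, Csf2 rose and the signature interleukins did not pass the threshold. Csf2 was at 20.1, 17.1, 7.61 and 11.9 CPM in WT acetate libraries 1 to 4 and at 51.3, 45.6, 35.9 and 39.5 CPM in KO acetate libraries 1 to 4. All KO libraries exceeded all WT libraries, and WT acetate 3 was the lowest. Csf2 encodes GM-CSF, the cytokine of pathogenic Th17 cells, and was 3.03-fold higher in KO (log2 difference 1.60, SE 0.30; edgeR adjusted p = 0.0297). The call held in 3 of the 8 fits that left out 1 library (highest adjusted p = 0.115, without KO acetate 1). Its untreated difference was of similar size, log2 1.89, and the interaction was -0.29 (edgeR adjusted p = 0.723). It was 1 of 12 tested cytokines, with 10 of the 12 above 0 and a median log2 of 0.386, the highest of the 46 lists.

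Il17a was at 639.5, 588, 312 and 401 CPM in WT acetate libraries 1 to 4 and at 1124, 776, 549 and 1023 CPM in KO acetate libraries 1 to 4. The WT and KO values overlapped, KO acetate 3 falling below 2 WT libraries, and Il17a had a log2 difference of 0.84 (SE 0.29, edgeR adjusted p = 0.154). Il17f was at 952 ± 234 CPM for WT and 1117 ± 254 CPM for KO cultures with acetate (log2 0.23, adjusted p = 0.616). Il21, which sustains Th17 and follicular responses, gave log2 0.40 (adjusted p = 0.0974), and the barrier cytokine Il22 gave -0.54 (adjusted p = 0.375). Ccl20, the ligand of CCR6, was at 11.9 ± 2.41 CPM for WT and 30.4 ± 11.4 CPM for KO cultures with acetate, without overlap (log2 1.36, adjusted p = 0.05903). Tnfsf11, which encodes RANKL, was likewise without overlap, at log2 0.37 (adjusted p = 0.0624).

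Of the 15 Th17 receptor genes none passed, with a median log2 of 0.0106. Il23r was at 29.4, 31.1, 26.9 and 27.9 CPM in WT acetate libraries 1 to 4 and at 23.4, 23.6, 23.8 and 26.7 CPM in KO acetate libraries 1 to 4. Every KO library of this IL-23 receptor gene was below every WT library, by a small margin (log2 -0.24, adjusted p = 0.366). In untreated libraries it stood at 22.9, 27.3, 28.9 and 30.01 CPM in the WT libraries and 6.22, 6.61, 6.94 and 11.5 CPM in the KO libraries, and the interaction was 1.56 (SE 0.20; edgeR interaction adjusted p = 0.000115). Il1rn, the IL-1 receptor antagonist, was at 3.41 ± 0.642 CPM for WT and 6.698 ± 1.57 CPM for KO cultures with acetate (adjusted p = 0.0593), and the IL-6 receptor gene Il6ra had a log2 difference of -0.30 (adjusted p = 0.0834).

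Among 22 Th17 transcription factors 1 passed. Nfkbiz was at 35.95, 38.8, 29.3 and 32.4 CPM in WT acetate libraries 1 to 4 and at 56.9, 47.3, 44.1 and 45.3 CPM in KO acetate libraries 1 to 4. KO libraries were all above WT libraries. Nfkbiz encodes IκBζ, a nuclear cofactor of NF-κB at Th17 cytokine genes, and was 1.42-fold higher in KO (log2 difference 0.50, SE 0.11; edgeR adjusted p = 0.0349), called in 3 of the 8 fits that left out 1 library (highest adjusted p = 0.155, without KO acetate 1). Rora, a nuclear receptor of the Th17 programme, gave log2 0.39 (adjusted p = 0.178), the IL-6 signal transducer Stat3 -0.05 (adjusted p = 0.831), and Maf 0.37 (adjusted p = 0.162). For Stat3 the interaction was 0.58 (adjusted p = 0.00749), from an untreated difference of -0.62. In the NF-κB list of 26 genes Nfkbiz rose and Bcl3, another nuclear IκB protein, fell from 83.3 ± 7.84 to 62.9 ± 9.51 CPM (edgeR adjusted p = 0.0363), with overlap between KO acetate 2 and WT acetate 1.

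Of the other helper lineages, few genes were called. In the Th1 and cytotoxic list (23 tested, median log2 0.032) and the Treg list (18 tested, -0.0807) no gene was called. The Th1 master factor Tbx21 was at 45.5 ± 10.1 CPM for WT and 40.2 ± 6.89 CPM for KO cultures with acetate, and Ifng at 3.04 ± 0.972 and 4.54 ± 1.52 CPM. Foxp3, the Treg factor, varied within WT from 2.02 to 16.3 CPM and in KO from 2.12 to 7.67 CPM (log2 -0.62, edgeR adjusted p = 0.648). Ctla4, an inhibitory receptor, was at 469.6 ± 119 CPM for WT and 569 ± 39.5 CPM for KO cultures with acetate, with an interaction of 1.41 (adjusted p = 0.00135) from an untreated difference of -1.13. Areg was the 1 rise among 12 Th2 genes, and Pou2af1, a transcriptional coactivator of lymphocytes, the 1 among 11 Tfh genes; it rose from 58.1 ± 5.61 to 76.04 ± 4.04 CPM (adjusted p = 0.03199).

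Of 24 T cell activation genes 2 rose. Cd83 was at 20.9, 21.8, 16.5 and 22.02 CPM in WT acetate libraries 1 to 4 and at 23.8, 26.8, 30.6 and 31.4 CPM in KO acetate libraries 1 to 4, without overlap. Cd83, an activation-induced surface glycoprotein, was 1.39-fold higher in KO (log2 difference 0.47, SE 0.10; edgeR adjusted p = 0.0284), called in 5 of the 8 fits that left out 1 library (highest adjusted p = 0.1, without KO acetate 3). Untreated libraries held 11.4, 12.3, 12.3 and 10.3 CPM in the WT libraries and 36.4, 36.1, 37.8 and 38.7 CPM in the KO libraries, so the genotype gap was wider there, and the interaction was -1.21 (SE 0.14; edgeR interaction adjusted p = 2.9e-05). Dusp6, a phosphatase that limits ERK signalling, rose from 25.4 ± 2.82 to 34.8 ± 3.97 CPM (log2 0.46, edgeR adjusted p = 0.0463). The early marker Cd69 was at 85.02 ± 19.5 CPM for WT and 85.6 ± 8.66 CPM for KO cultures with acetate, and Il2 at 598 ± 35.4 and 768 ± 102 CPM, without overlap (adjusted p = 0.132). Il2 and Myc had interactions of -0.62 (adjusted p = 0.0295) and -0.50 (adjusted p = 0.0105).

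Genes of naive and memory cells lay mostly below WT: 14 of 16 were below 0, with a median log2 of -0.251, and 2 fell. Ly6c1 was at 3.77, 5.42, 3.597 and 3.92 CPM in WT acetate libraries 1 to 4 and at 2.12, 2.65, 1.99 and 1.63 CPM in KO acetate libraries 1 to 4, with no overlap. Ly6c1, a surface antigen of memory CD4+ T cells, was 1.99-fold lower in KO (log2 difference -0.99, SE 0.23; edgeR adjusted p = 0.0468), called in 1 of the 8 fits that left out 1 library (highest adjusted p = 0.155, without KO acetate 1). Cd27, a costimulatory receptor, fell from 38.5 ± 2.34 to 30.7 ± 1.74 CPM (adjusted p = 0.0363). The transcription factor Lef1 was at 209.6 ± 8.55 CPM for WT and 179.9 ± 18.7 CPM for KO cultures with acetate, without overlap (adjusted p = 0.0947). Ccr7 had a log2 difference of -0.27 and Tcf7 of -0.23, with overlap. The list's median lay between -0.361 and -0.136 in the KO libraries and between -0.0792 and 0.103 in the WT libraries, against the WT acetate mean.

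Among T cell receptor components Cd3g and Cd3d fell. Cd3g was at 167, 170.5, 182 and 171 CPM in WT acetate libraries 1 to 4 and at 116, 133, 122 and 143 CPM in KO acetate libraries 1 to 4. Each KO library was below each WT library. Cd3g, the CD3γ chain, was 1.34-fold lower in KO (log2 difference -0.43, SE 0.07; edgeR adjusted p = 0.00487). Cd3d, the CD3δ chain, fell from 119.8 ± 3.67 to 97.4 ± 6.89 CPM (1.23-fold, adjusted p = 0.0307; called in 3 of the 8 fits that left out 1 library (highest adjusted p = 0.138, without KO acetate 1)). With offsets for transcript length and GC content its log2 difference was -0.08 and its call was lost (edgeR adjusted p = 0.661). Cd3e was at 129 ± 11.5 CPM for WT and 116 ± 3.63 CPM for KO cultures with acetate (adjusted p = 0.288), and the coreceptor gene Cd4 at 419 ± 12.8 and 404 ± 22.3 CPM. Of the 27 tested genes of the complex and its proximal signalling 21 were below 0, with a median of -0.0818. The untreated differences were -0.45 for Cd3g and -0.24 for Cd3d, and neither interaction was called. Cd2, an adhesion receptor, gave -0.21 with acetate and -1.01 without (interaction adjusted p = 7.2e-05).

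Among glycolytic and hypoxia-response genes 2 fell. Of 24 glycolysis genes 1 fell, with a median log2 of -0.0684, beside -0.434 without acetate. Gpi1 was at 358, 391, 369 and 359 CPM in WT acetate libraries 1 to 4 and at 268, 333, 301 and 300.03 CPM in KO acetate libraries 1 to 4. The groups did not overlap. Gpi1, glucose-6-phosphate isomerase, was 1.23-fold lower in KO (log2 difference -0.30, SE 0.07; edgeR adjusted p = 0.03703), called in 2 of the 8 fits that left out 1 library (highest adjusted p = 0.155, without KO acetate 1). The glucose transporter Slc2a1 was at 76.1 ± 4.61 CPM for WT and 63.2 ± 6.56 CPM for KO cultures with acetate (adjusted p = 0.119), hexokinase Hk2 at 132 ± 8.09 and 147 ± 17.8 CPM, Gapdh at log2 -0.31 (adjusted p = 0.103) and Ldha at -0.07. Interactions were called for Hk2, 0.74 (edgeR adjusted p = 0.00101), and for the lactate exporter Slc16a3, 1.61 (adjusted p = 5.9e-05). Slc16a3 was at 130.02, 126, 76.96 and 104 CPM in WT and 75.6, 91.1, 81.9 and 91.3 CPM in KO acetate libraries, and at 109, 131, 115 and 119 CPM in the WT libraries and 33.8, 26.7, 29.7 and 30.4 CPM in the KO libraries without acetate.

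Among 26 HIF1 and hypoxia targets P4ha1, the catalytic α subunit of collagen prolyl 4-hydroxylase, fell from 59.3 ± 0.525 to 50.7 ± 1.904 CPM (adjusted p = 0.0307). The list's median was -0.0765 with acetate and -0.354 without. Hif1a itself stood at 707 ± 172 CPM for WT and 726 ± 89.2 CPM for KO cultures with acetate (log2 0.04), with an interaction of 1.07 (edgeR adjusted p = 0.00473). Bnip3, a hypoxia-induced mitophagy receptor, gave -0.39 with acetate and -1.42 without (interaction adjusted p = 0.0143).

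In the TCA cycle and its shuttles, 22 of 32 genes were below 0 and 1 fell. Slc25a11 was at 74.2, 72.01, 67.7 and 67.7 CPM in WT acetate libraries 1 to 4 and at 53.5, 58.9, 55.02 and 57.9 CPM in KO acetate libraries 1 to 4, with no overlap. Slc25a11, the mitochondrial oxoglutarate/malate carrier, was 1.25-fold lower in KO (log2 difference -0.32, SE 0.06; edgeR adjusted p = 0.0214), called in 6 of the 8 fits that left out 1 library (highest adjusted p = 0.0833, without KO acetate 1). Citrate synthase (Cs) was at 383 ± 29.9 CPM for WT and 351 ± 32.99 CPM for KO cultures with acetate (adjusted p = 0.3801). Pyruvate carboxylase (Pcx) gave log2 -0.10 and the carrier subunit Mpc1 -0.05 with acetate, beside 0.62 and 0.30 without (interaction adjusted p = 0.009602 and 0.0362).

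Acaca was the 1 rise among 20 genes of fatty acid synthesis and desaturation. Acaca was at 145, 133, 151 and 157 CPM in WT acetate libraries 1 to 4 and at 219, 171, 198 and 172 CPM in KO acetate libraries 1 to 4. The groups were separate, and KO acetate 1 was the highest. Acaca encodes acetyl-CoA carboxylase, which makes malonyl-CoA from cytosolic acetyl-CoA in the committed step of fatty acid synthesis. It was 1.297-fold higher in KO (log2 difference 0.38, SE 0.07; edgeR adjusted p = 0.0239), called in 4 of the 8 fits that left out 1 library (highest adjusted p = 0.101, without KO acetate 1). Fasn, fatty acid synthase, was at 343 ± 43.4 CPM for WT and 438 ± 28.8 CPM for KO cultures with acetate, without overlap (adjusted p = 0.0754). The list's median was 0.113, that of cholesterol synthesis and sterol regulation 0.1 with 0 of 31 called, and that of fatty acid oxidation -0.0748 with 0 of 23 called. Cpt1a, which carries long-chain fatty acids towards oxidation, was at 45.3 ± 3.41 CPM for WT and 37.3 ± 4.49 CPM for KO cultures with acetate (adjusted p = 0.0834).

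Genes of the respiratory chain leaned below WT. Of 49 complex I subunits and assembly factors 41 were below 0, the median was -0.161, and 4 fell. Ndufv3 was at 53.4, 52.5, 47.5 and 44.4 CPM in WT acetate libraries 1 to 4 and at 32.5, 41.01, 32.4 and 36.98 CPM in KO acetate libraries 1 to 4. All KO values were below all WT values, KO acetate 1 and 3 being the lowest. Ndufv3, a subunit of the NADH-binding module, was 1.38-fold lower in KO (log2 difference -0.47, SE 0.08; edgeR adjusted p = 0.0163), called in 6 of the 8 fits that left out 1 library (highest adjusted p = 0.0658, without KO acetate 1). The accessory subunit Ndufb10 fell from 54.96 ± 2.72 to 44.5 ± 3.21 CPM, the module subunit Ndufv2 from 152 ± 3.04 to 122 ± 14.2 CPM, and the assembly factor Ndufaf3 from 8.96 ± 0.835 to 6.22 ± 0.857 CPM (edgeR adjusted p = 0.0307, 0.0349 and 0.03496).

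Complexes III, IV and V had 40 of 43 genes below 0 and a median of -0.166, with no call. Uqcrh of complex III was at 173 ± 3.97 CPM for WT and 147 ± 13.99 CPM for KO cultures with acetate (adjusted p = 0.0658), Cox5a of complex IV at 137 ± 7.72 and 111 ± 23.1 CPM, and Atp5d of ATP synthase at 256 ± 16.9 and 200.003 ± 29.1 CPM (adjusted p = 0.0754). Of 79 mitochondrial ribosome genes Mrpl19 rose, from 57.8 ± 3.41 to 71.4 ± 3.06 CPM, and the median was -0.112. The 13 genes encoded on mitochondrial DNA held no call, with a median of -0.312, beside 0.236 without acetate. mt-Nd3, a complex I subunit, was at 314, 321, 479 and 392 CPM in WT and 90.04, 184, 63.4 and 149 CPM in KO libraries, without overlap (log2 -1.63, adjusted p = 0.103). mt-Nd6, which lies on the opposite strand of the mitochondrial genome, gave 0.58, and mt-Co1 -0.10. In these 4 lists 148 of 184 genes, 80.4%, were below 0, beside 48.5% of all tested genes.

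The medians of complex I and of complexes III, IV and V were furthest below WT in KO acetate 1 and 3. Against the WT acetate mean, the complex I median was -0.305, -0.0353, -0.269 and -0.0253 in KO acetate 1 to 4, and that of complexes III, IV and V was -0.39, -0.0707, -0.256 and -0.0648. WT libraries ranged from -0.0347 to 0.0437 and from -0.0267 to 0.0482. Genes encoded on mitochondrial DNA had another order, with medians of -0.43, -0.479, -0.249 and 0.0149 in KO acetate 1 to 4. Their WT medians ran from -0.179 to 0.187. KO acetate 1 and 3 were also the libraries in which longer transcripts stood higher. The median over the longest 10% of genes minus that over the shortest 10% was 0.233 in KO acetate 1 and 0.166 in KO acetate 3, -0.00755 in KO acetate 2, -0.0193 in KO acetate 4 and -0.0881 to 0.00194 in WT. Genes that rose had a median transcript length of 1821 nt and genes that fell 921.5 nt, against 1393 nt for all tested genes. Across 10 bins of length the median log2 difference went from -0.0538 for the shortest to 0.06 for the longest, and the falls went from 15 to 1. With per-library offsets for length and GC content, chosen after these values were seen, 106 genes were higher and 111 lower, and 127 of the 150 stayed called. Without KO acetate 1 the complex I median was -0.0891 with no call, without KO acetate 3 it was -0.106 with no call, and with the offsets it was -0.113 with the same 4 genes called. Of the 53 genes chosen by the naming rule 8 lost the call with the offsets: Cd3d at an edgeR adjusted p of 0.661, and Pou2af1, Macrod1, Cd27, B2m, Rps13, Dusp6 and Syde2 at 0.0518 to 0.0595. The part of transcript length in the respiratory result was not tested.

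**Figure D3:**
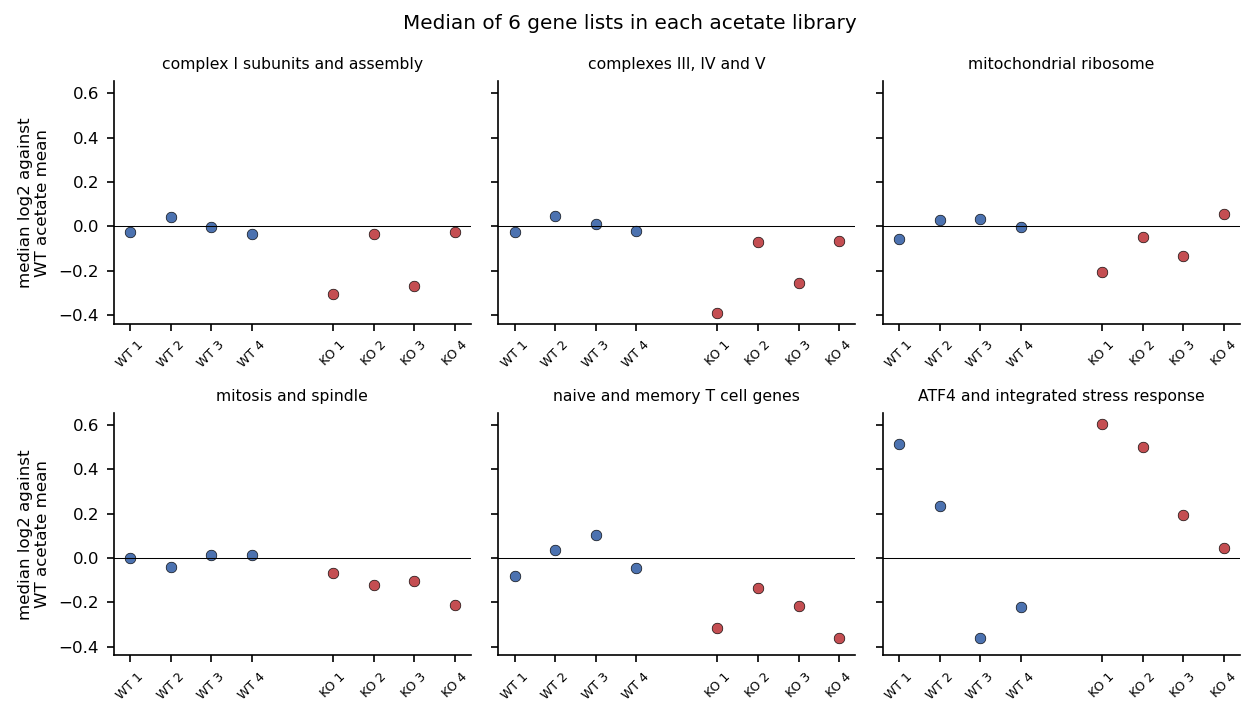
Median log2 difference from the WT acetate mean over the tested genes of 6 lists, 1 point per acetate library. For complex I, KO 1 and KO 3 lie at -0.305 and -0.269 while KO 2 and KO 4 lie at -0.0353 and -0.0253, close to the lowest WT libraries; for mitosis all 4 KO points lie below the WT points; for ATF4 genes, libraries 1 and 2 lie above 3 and 4 in each genotype.

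**Figure D4:**
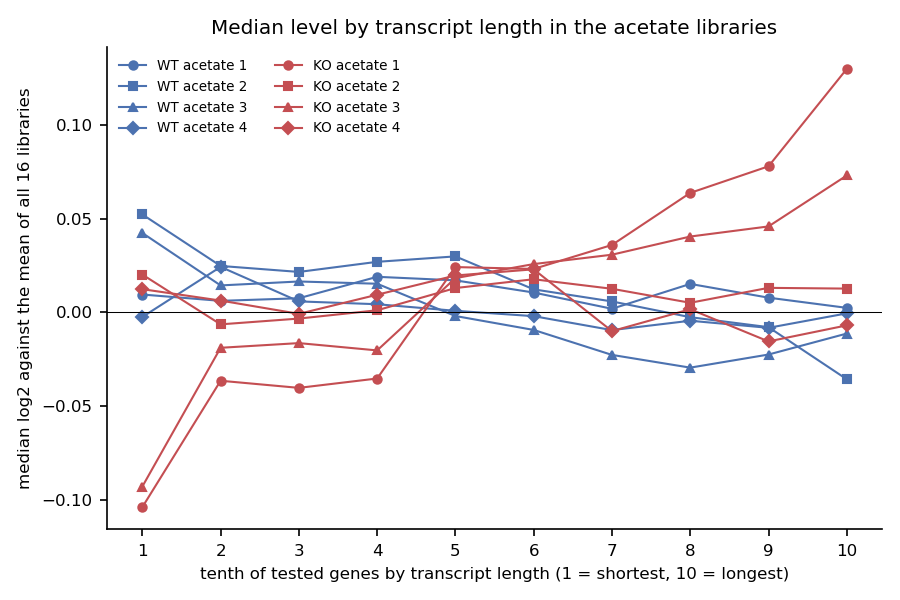
Median log2 level, against the mean of all 16 libraries, of the tested genes in 10 bins of transcript length, with 1 line per acetate library. KO acetate 1 runs from -0.104 in the shortest bin to 0.13 in the longest and KO acetate 3 from -0.093 to 0.0731, while the other 6 stay between -0.0357 and 0.0523.

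The mitotic list lay below WT in all 4 KO acetate libraries. With acetate the median of 30 genes was -0.134 and 27 were below 0. Of the 30, 14 had every KO library below every WT library (4.86% of all tested genes did), and 3 fell: Ube2c, Ccnb1 and Ccnb2. Without acetate the list's median was lower, at -0.194, and 17 genes fell and 1 rose. Interactions were called for 4 genes of the list, all of them positive. By library the median was -0.0695, -0.12, -0.103 and -0.214 in KO acetate 1 to 4 and 0.00165, -0.04, 0.0135 and 0.0152 in WT acetate 1 to 4. The promoters of the 3 called genes are shown because B-type cyclins and the ubiquitin-conjugating enzyme Ube2c are transcribed together in G2 and mitosis, through CCAAT boxes bound by NF-Y and through CHR elements. Each is the 250 bases before the annotated start in RefSeq (GRCm38.p6), with CCAAT and TTTGAA on either strand in capitals; these letters were searched as ATTGG and TTCAAA on the reverse strand.
Ccnb1 (chr13:100786487-100786736, minus strand): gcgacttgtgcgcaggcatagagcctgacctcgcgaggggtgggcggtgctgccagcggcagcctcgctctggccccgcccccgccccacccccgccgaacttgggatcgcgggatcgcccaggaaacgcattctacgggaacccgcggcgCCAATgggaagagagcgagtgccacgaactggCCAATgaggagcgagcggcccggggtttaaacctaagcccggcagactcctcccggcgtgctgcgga
Ccnb2 (chr9:70421555-70421804, minus strand): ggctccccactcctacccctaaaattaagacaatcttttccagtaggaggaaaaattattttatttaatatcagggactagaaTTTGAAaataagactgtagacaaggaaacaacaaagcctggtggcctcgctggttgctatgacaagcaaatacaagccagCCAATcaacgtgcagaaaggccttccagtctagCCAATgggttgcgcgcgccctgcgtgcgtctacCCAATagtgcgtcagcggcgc
Ube2c (chr2:164769679-164769928, plus strand): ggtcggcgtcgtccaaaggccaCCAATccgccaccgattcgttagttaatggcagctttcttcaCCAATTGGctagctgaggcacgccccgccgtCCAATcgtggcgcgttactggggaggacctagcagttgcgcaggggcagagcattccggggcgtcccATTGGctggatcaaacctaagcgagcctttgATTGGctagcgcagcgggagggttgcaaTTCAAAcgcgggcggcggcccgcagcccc
The windows held 2, 3 and 6 CCAAT matches and 0, 1 and 1 TTTGAA matches, respectively. TTTGAA was the only spelling of a CHR element searched, so the 0 for Ccnb1 does not show that its window lacks one. In Ube2c a pair of CCAAT matches on opposite strands overlap. Of the 25 mitotic genes with a promoter in that table, 21 (84%) held CCAAT and 8 (32%) TTTGAA, against 36.7% and 11% of the 10380 tested genes with one. The genes called lower with acetate did not share the high CCAAT figure: 21 of 60 (35%) held it and 10 (16.7%) held TTTGAA. Among genes called higher, 20 of 54 (37%) held CCAAT and 4 (7.41%) TTTGAA. These are matches of letters, and nothing here measured binding.

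Ube2c was at 168, 183, 179 and 168 CPM in WT acetate libraries 1 to 4 and at 108, 153, 118 and 136 CPM in KO acetate libraries 1 to 4. Ccnb1 was at 200.04, 191, 206 and 205 CPM in WT acetate libraries 1 to 4 and at 157, 159, 157 and 169.6 CPM in KO acetate libraries 1 to 4. Neither gene had an overlap, and KO acetate 1 was the lowest library for both. Ube2c was 1.36-fold lower in KO (log2 difference -0.44, SE 0.09; edgeR adjusted p = 0.0267), called in 3 of the 8 fits that left out 1 library (highest adjusted p = 0.101, without KO acetate 1). Ccnb1, cyclin B1, was 1.25-fold lower in KO (log2 difference -0.32, SE 0.06; edgeR adjusted p = 0.0278), called in 4 of the 8 fits that left out 1 library (highest adjusted p = 0.107, without KO acetate 1). Ccnb2 fell from 72.01 ± 3.93 to 57.9 ± 6.22 CPM (edgeR adjusted p = 0.0337). The kinase Plk1 was at 103 ± 4.43 CPM for WT and 88.2 ± 2.57 CPM for KO cultures with acetate and the APC/C activator Cdc20 at 88.9 ± 7.45 and 71.7 ± 6.704 CPM, each without overlap (adjusted p = 0.0665 and 0.0857). Mki67 was at 594 ± 65.4 and 566 ± 44.5 CPM, with overlap. Of 39 DNA replication genes 33 were below 0 and 1 fell, the clamp loader subunit Rfc4, from 51.9 ± 2.39 to 41.4 ± 2.66 CPM (adjusted p = 0.0239), and Mcm2 gave log2 -0.12.

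Targets of ATF4, the transcription factor of the integrated stress response, were mostly above WT, and all but 1 missed the threshold. Of 37 tested genes 36 were above 0, with a median of 0.245, 1 rose, and 36 differed less than without acetate, where the median was 0.983 and 30 rose. Sesn2 was at 39.2, 44.1, 29.7 and 35.3 CPM in WT acetate libraries 1 to 4 and at 63.1, 59.3, 47.1 and 52.1 CPM in KO acetate libraries 1 to 4, without overlap. Sesn2, a leucine sensor upstream of mTORC1 that both ATF4 and p53 induce, was 1.49-fold higher in KO (log2 difference 0.58, SE 0.12; edgeR adjusted p = 0.0307), called in 4 of the 8 fits that left out 1 library (highest adjusted p = 0.138, without KO acetate 1). Trib3 was at 15.6, 9.204, 2.27 and 5.62 CPM in WT and 27.5, 14.8, 12.7 and 11.8 CPM in KO acetate libraries, and asparagine synthetase (Asns) at 93.9, 65.8, 22 and 37.1 and 128, 85.2, 68.6 and 53.4 CPM. Their KO and WT values overlapped, and for both genes libraries 1 and 2 of a genotype were higher than its libraries 3 and 4.

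By library the ATF4 list's median was 0.513, 0.235, -0.363 and -0.22 in WT acetate 1 to 4 and 0.604, 0.5, 0.193 and 0.0428 in KO acetate 1 to 4. Numbers 1 and 2 were above 3 and 4 in each genotype, and the labels name no batch. This order was not particular to ATF4 genes. It also held for HIF1 and hypoxia targets, acetyl-CoA supply, Th17 transcription factors and amino acid transporters, but not for complex I. On the second principal component WT acetate 1 to 4 stood at 21.79, 20.49, -15.89 and -15.09. KO acetate 1 to 4 stood at -13, 37.2, -25.18 and -10.32 and did not part in that way. Atf4 gave log2 0.30 (adjusted p = 0.131), with an interaction of -0.67 (adjusted p = 0.00627), and Atf5 0.23, with an interaction of -1.55 (adjusted p = 1.5e-05). The one-carbon enzyme Shmt2 and the serine synthesis enzyme Phgdh gave 0.29 and 0.03, and the amino acid carrier Slc7a5 0.01, all with negative interactions (-0.75, -0.56 and -1.05; adjusted p = 0.00343, 0.00745 and 0.000104). The arginine carrier Slc7a3 was at 4.07 ± 2.71 CPM for WT and 10.2 ± 5.57 CPM for KO cultures with acetate (adjusted p = 0.177). No gene was called among 21 serine and one-carbon enzymes, 19 amino acid transporters or 21 aminoacyl-tRNA synthetases.

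Among 24 p53 targets 3 rose, Sesn2, Plk2 and Eda2r, where 0.487% of all tested genes rose. Sesn2 is also the 1 call of the ATF4 list. Without acetate 8 of the p53 targets rose, and none had an interaction call. Plk2, a stress-induced polo-like kinase, rose from 47.3 ± 5.84 to 71.5 ± 4.87 CPM (log2 0.60, edgeR adjusted p = 0.0324), and the ectodysplasin receptor Eda2r from 0.635 ± 0.161 to 1.295 ± 0.2302 CPM (adjusted p = 0.0381). The classical targets Cdkn1a and Mdm2 gave log2 0.13 and 0.16 with overlap (adjusted p = 0.6601 and 0.205). In the NRF2 and glutathione list 21 of 26 were below 0 and Gstp1, a glutathione S-transferase, fell from 139 ± 10.3 to 97.4 ± 16.7 CPM (adjusted p = 0.0239). Without KO acetate 1 all of these calls were lost, at adjusted p between 0.0826 (Gstp1) and 0.139 (Plk2).

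Interferon-stimulated genes held no call (50 tested, median -0.0596, beside 0.362 without acetate). Isg15 was at 0.739 ± 0.316 CPM for WT and 1.23 ± 0.352 CPM for KO cultures with acetate and Irf7 at 0.365 ± 0.0731 and 0.422 ± 0.188 CPM, with interactions of -2.27 and -2.16 (edgeR adjusted p = 0.002597 and 0.00971). Of 20 genes of MHC class I presentation 16 were below 0 and B2m fell. B2m was at 585, 607, 711 and 599.96 CPM in WT acetate libraries 1 to 4 and at 362, 539, 423 and 523 CPM in KO acetate libraries 1 to 4. No KO library reached the lowest WT library. B2m, the light chain of MHC class I, was 1.36-fold lower in KO (log2 difference -0.44, SE 0.10; edgeR adjusted p = 0.0445), called in 2 of the 8 fits that left out 1 library (highest adjusted p = 0.155, without KO acetate 1). Its untreated difference was 0.17, and the interaction was -0.60 (SE 0.14; edgeR interaction adjusted p = 0.0107). The heavy chain gene H2-K1 gave -0.18 with acetate and 0.25 without (interaction adjusted p = 0.00253), and Tapbp, tapasin, -0.49 (adjusted p = 0.0782).

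Of the 150 genes 35 had an interaction call, 20 with the larger difference in acetate and 15 with the smaller. These counts are not independent of the acetate calls, which use the same acetate libraries. For Ly6c1, at log2 -2.42 without acetate, the interaction was 1.43 (edgeR adjusted p = 0.0193). Besides Dclk1, Areg and Inhba, the largest positive ones at 5 CPM or more were Upb1, Syde2 and Sytl3. Upb1, the β-ureidopropionase of pyrimidine breakdown, rose from 10.2 ± 2.29 to 16.3 ± 0.6202 CPM, with an untreated log2 difference of -0.38 (interaction 1.06, edgeR adjusted p = 0.00348). Syde2, a GTPase-activating protein, was the gene with opposite calls: it rose with acetate, 16.6, 16.2, 15.01 and 16.5 CPM in WT and 22.1, 19.7, 19.7 and 19.3 CPM in KO, and fell without it, 8.22, 8.85, 8.32 and 9.33 CPM in the WT libraries and 7.11, 6.15, 6.404 and 6.84 CPM in the KO libraries. Neither culture gave an overlap for Syde2. Sytl3, a Rab27 effector of vesicle traffic, rose from 16.7 ± 1.04 to 22.9 ± 2.53 CPM (interaction 0.66, adjusted p = 0.00658). On the negative side, next to Cd83, Susd3, Rps13, B2m and Podnl1, stood Mir142hg, the host transcript of a lymphocyte microRNA; it rose from 10.4 ± 1.82 to 16.1 ± 2.86 CPM with acetate and had a log2 difference of 1.46 without (interaction -0.83, adjusted p = 0.0103).

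Over the 46 gene lists, 30 of 1084 distinct tested members were called with acetate, 12 higher and 18 lower, and 24 lists held no call. Over all tested genes 150 of 14985 were called, or 1.00%. The lists were chosen with earlier results of these data known, and whether they held more calls than other genes was not tested. The median of a list lay closer to 0 with acetate than without in 30 of the 46. The largest shifts towards 0 were those of ATF4 targets, from 0.983 to 0.245, of amino acid transporters, from 0.543 to 0.13, and of glycolysis, from -0.434 to -0.0684. Medians moved away from 0 for complex I, from 0.0207 to -0.161, and for naive and memory genes, from -0.16 to -0.251. The difference between the medians of a list was not tested.

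**Figure D5:**
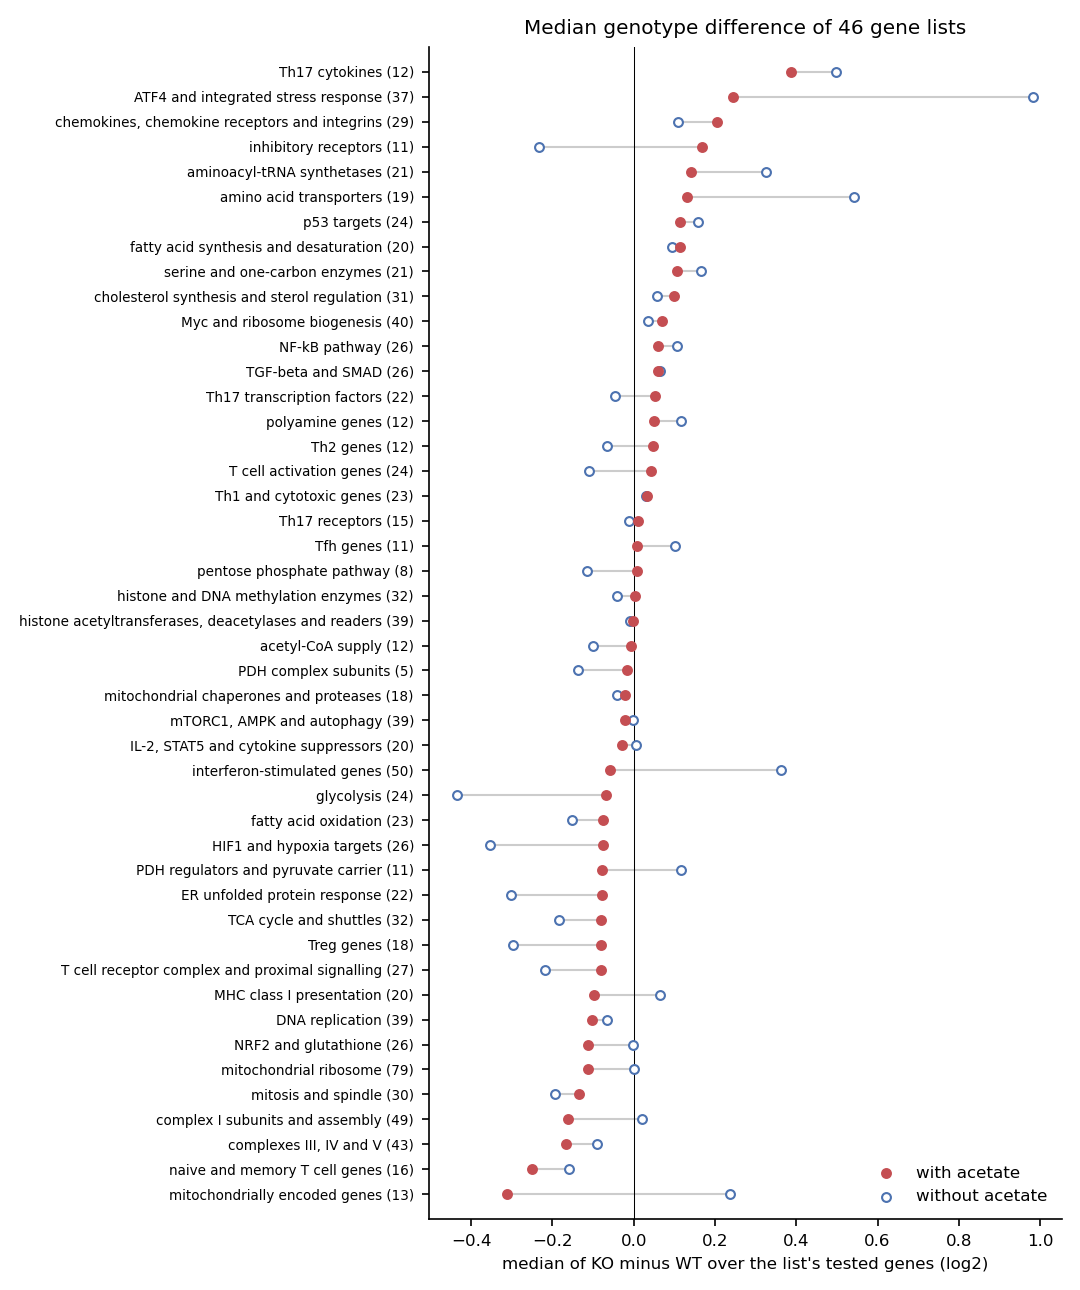
Median log2 difference between KO and WT over the tested members of 46 gene lists (number in brackets), with acetate (filled) and without (open), ordered by the value with acetate. With acetate all medians lie between -0.312 and 0.386, while without it they reach from -0.434 to 0.983.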

How the data were processed

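RNA-seq of 16 mouse Th17 cultures was analysed, and this text concerns 8 of them in 2 groups of 4. RNA was total RNA extracted with a column kit and made into stranded mRNA libraries, as the labels' protocols state. The deposited table holds estimated counts per Ensembl gene as whole numbers. Salmon, DESeq2 and DESeq are named in the submitters' processing notes without versions or roles. No source used here gives the genome build or annotation. How the authors divided reads between similar genes, and how they rounded the deposited counts, could change single genes.

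Counts were tested as deposited with edgeR 4.0.16 (R 4.3.3): TMM scaling, filterByExpr, and a robust quasi-likelihood fit with 1 coefficient for each of the 4 groups over all 16 libraries. Contrasts were KO minus WT with acetate, KO minus WT without, and their difference. P-values were adjusted by Benjamini-Hochberg over all 14985 genes tested, and an adjusted p under 0.05 is called. Levels are CPM on TMM-scaled totals, which are not corrected for gene length and compare libraries, not genes. Acetate libraries held 24.57 M to 33.72 M counts.

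Gene lists were matched by symbol and described by counts and medians. Named genes were marked list members, up to 5 members of a list with the smallest adjusted p, the 12 largest rises and 12 largest falls without overlap at 5 CPM or more, and the 6 largest interactions in either direction among called genes. Members and lists were chosen with earlier results of these data known. Transcript lengths and GC content came from GENCODE transcripts, matched for 98% of genes tested, and promoters from RefSeq (GRCm38.p6). The scripts were tested on simulated data. Alternatives were another scaling, DESeq2 1.42.0, limma-voom (limma 3.58.1), other filters, fewer libraries, and a replicate block. Offsets for length and GC content and a term for library numbers 1 and 2 against 3 and 4 were added after seeing the data.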

Additional observations from a re-analysis of the deposited data

Results flagged for a closer look

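In 5 of 258 groups of 4 libraries, 1 library lay far from the other 3, a share of 1.94%, where chance gives about 1 in 20. Ccnb1 was highest in KO acetate 4, at 170 CPM. Syde2 was highest in KO acetate 1, at 22.1 CPM, and Il23r in KO acetate 4, at 26.7 CPM. Myc was highest in KO acetate 3, at 436 CPM, and Cpt1a was lowest in KO acetate 4, at 30.6 CPM.

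For 44 of the 129 genes described under the naming rule, the genotype difference differed between the acetate and untreated cultures. The test was edgeR's interaction test (adjusted p under 0.05). Values are the log2 difference KO minus WT with acetate minus that without. Among genes called with acetate they were positive for P4ha1 0.324, Areg 1.1, Ly6c1 1.43, Inhba 0.986, Dclk1 1.39, Apobr 0.6, Upb1 1.06, Syde2 0.721 and Sytl3 0.662. They were negative for B2m -0.604, Cd83 -1.21, Podnl1 -0.598, Rps13 -0.618, Susd3 -0.746, Tmem107 -0.478 and Mir142hg -0.827. Among genes not called with acetate they were positive for Pdhx 0.338, Il23r 1.56, Stat3 0.575, Stat4 1.39, Gzmb 0.957, Ctla4 1.41, Hif1a 1.07, Hk2 0.737, Slc16a3 1.61, Bnip3 1.04, Nr4a1 0.896, Cd2 0.804 and Rel 0.684. They were negative for Pcx -0.726, Mpc1 -0.347, Fasn -0.505, Il1rn -1.19, Atf4 -0.666, Atf5 -1.55, Slc7a5 -1.05, Shmt2 -0.751, Phgdh -0.559, Isg15 -2.27, Irf7 -2.16, H2-K1 -0.436, Myc -0.497, Il2 -0.619 and mt-Co1 -0.516.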

How the results depend on the processing

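Against 73 genes higher and 77 lower in KO with acetate, the counts of higher and lower genes were 28 and 50 without scaling, 324 and 502 with DESeq2, 13 and 3 with the acetate libraries alone, and 213 and 322 without the libraries in which 1 unnamed gene took over 3% of counts. That last setting dropped KO acetate 2 (7.995% of counts), WT untreated 1 (5.889%), KO untreated 1 (9.137%) and KO untreated 2 (3.27%). It left 1010 interaction calls against 1785. Dropping KO acetate 2 alone gave 236 higher and 425 lower. A term for numbers 1 and 2 against 3 and 4 gave 122 higher. Leaving out 1 library gave 12 to 236 higher and 7 to 425 lower genes, and 1277 to 1999 interaction calls. DESeq2 kept 143 of the 150 calls, limma-voom and RLE scaling 148 each, and the acetate-only fit 12. The causes were not tested. Of 150 genes, 6 were tested and called in all 20 alternatives. None of the 53 called genes chosen by the naming rule changed sign in any of them. Medians close to 0, such as those of acetyl-CoA supply, Th17 receptors and PDH subunits, did.

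With a replicate block, 182 genes were higher and 226 lower, and 149 of the 150 stayed called. Correlations of deviations between same-numbered WT and KO acetate libraries were 0.214, 0.15, 0.0274 and 0.0800. WT acetate 3 correlated best with KO acetate 4 (0.167) and WT acetate 4 with KO acetate 3 (0.12), so not every library correlated best with its own number, and the numbers were not used to pair libraries.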

Other observations

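Other gene groups of the T cell held no call with acetate. Chemokines, chemokine receptors and integrins had 19 of 29 above 0, median 0.204, and inhibitory receptors 8 of 11 above 0, median 0.167. Myc targets and ribosome biogenesis genes had 28 of 40 above 0, median 0.0706. The unfolded protein response of the endoplasmic reticulum had 7 of 22 above 0, median -0.0791, beside -0.303 without acetate, where 12 of its genes fell. Histone acetyltransferases, deacetylases and readers, the enzymes and proteins that write, erase and bind acetyl marks, had 19 of 39 above 0, median -0.00115. Enzymes of histone and DNA methylation had 17 of 32 above 0, median 0.00353.

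Gm33707, a predicted gene chosen after its values were seen, had no count in any of the 8 WT libraries. It therefore passed the low-count filter through the KO libraries alone, and its values are given as a description only. It stood at 0.909, 0.523, 1.099 and 0.7098 CPM in KO acetate 1 to 4 and at 1.79, 1.91, 2.19 and 1.69 CPM in KO untreated 1 to 4. Against a floor of 3 counts per WT library, or 0.119 CPM with acetate and 0.103 CPM without, it was at least 6.82-fold higher in KO acetate and at least 18.4-fold higher in KO untreated libraries. Gm38326, chosen the same way, was at 0.13, 0, 0.059 and 0 CPM in WT and 1.95, 1.05, 1.06 and 1.21 CPM in KO acetate libraries.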
